A study of Homo sapiens with 2 samples.

Results

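Of the 11963 genes with a probe set of their own on the microarrays, 10 are described here: the kinases JAK1, JAK2 and TYK2, the transcription factors STAT3, STAT5A, STAT5B and STAT6, and the feedback inhibitors SOCS1, SOCS2 and SOCS3. They were chosen by name, with earlier results of these data known. All 21 probe sets that carry 1 of these symbols and no other were used. RNA came from L-428, an established cell line from Hodgkin's lymphoma (HL), and was hybridised to 2 Affymetrix HG_U133A microarrays. For 1 array the transfected vector was pcDNA6.2-GW/EmGFP-miR-neg, the control, and for the other it was pcDNA6.2-GW/EmGFP-miR-DUSP5, from which an artificial microRNA directed at the ERK phosphatase DUSP5 is made. Both vectors carry EmGFP, a green fluorescent protein. There was 1 array per condition from a single cell line. All differences are therefore given without a test or a p-value, and an effect of the knock-down cannot be told apart from a difference between the 2 cultures.

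JAK kinases sit on the inner side of cytokine receptors and are activated when a cytokine brings the receptor chains together. They phosphorylate STAT factors, which pair, enter the nucleus and switch on target genes, among them those of the SOCS proteins, which bind receptors or kinases and end the signal. HL cells are known for a constantly active JAK-STAT pathway, fed by cytokines that the cells make themselves and by frequent damage to inhibitors such as SOCS1.

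The arrays were alike in overall brightness, with median signal intensities of 161 in control cells and 164 after knock-down. DUSP5 itself, at its only probe set, had a signal intensity of 628 in control cells and 368 after knock-down. This is a log2 ratio of -0.77 (SD 0.41, explained below). Of all genes measured in the sense given below, 19% were at least 1.5-fold lower. CD30 (TNFRSF8), the defining surface marker of HL cells, was bright on both arrays (1724 and 3618). Of 12 HL and B cell markers 7 were measured, of which 1 was at least 1.5-fold higher (TNFRSF8) and 1 that much lower (FUT4, -1.25, with 0.35 at its other measured probe set). When all probe sets of a gene were averaged, 3 of these markers were higher and none was lower. Of 15 probe sets for 10 marker genes of T cells, myeloid, epithelial, stromal and blood cells, 13 had mean signals under 200, and the highest mean signal was 221. Their summed signal was 1186 in control cells and 1571 after knock-down. A mean signal of 200 over both arrays was used as the lower limit for calling a probe set measured, and 16 of the 21 probe sets reached it. As a measure of error, the log2 ratios (knock-down over control) of the 10 genes and of some others are followed by a standard deviation (SD). This SD is the typical error of a single probe set, derived from the differences between probe sets that share a gene and a range of signal. It holds the error of the probes but no error from repeated cultures, and none that all probe sets of an array share. Real differences between the transcripts of a gene also enter it. In a bulk culture, a large change in some of the cells cannot be told apart from a smaller change in all of them.

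STAT3 and STAT5B were lower after knock-down at every probe set, STAT6 was higher at both of its probe sets, and no kinase passed a 1.5-fold limit. For the counts, each gene was represented by its brightest probe set, and 9 of the 10 genes were measured, all except SOCS3. At least 1.5-fold lower were 2 of these 9 genes, STAT3 and STAT5B, and 1 was at least 1.5-fold higher, STAT6. Among all 6301 measured genes, 19% were at least 1.5-fold lower and 15.6% at least 1.5-fold higher, so the number of genes past this limit was close to that on the arrays as a whole. The median log2 ratio of the 9 genes was -0.31, against 0.01 for all measured genes. Of the 16 measured probe sets, 6 were at least 1.5-fold lower, where 19.1% of all 9037 measured probe sets were, and 1 was at least 1.5-fold higher, where 15.4% were. Of these 6, 5 belong to STAT3 and STAT5B, and probe sets of the same gene are not independent. After the log2 ratios were centred on the median of all probe sets, which shifts every ratio by -0.12, no gene of the 9 was at least 1.5-fold higher and the same 2 were lower.

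**Figure D1:**
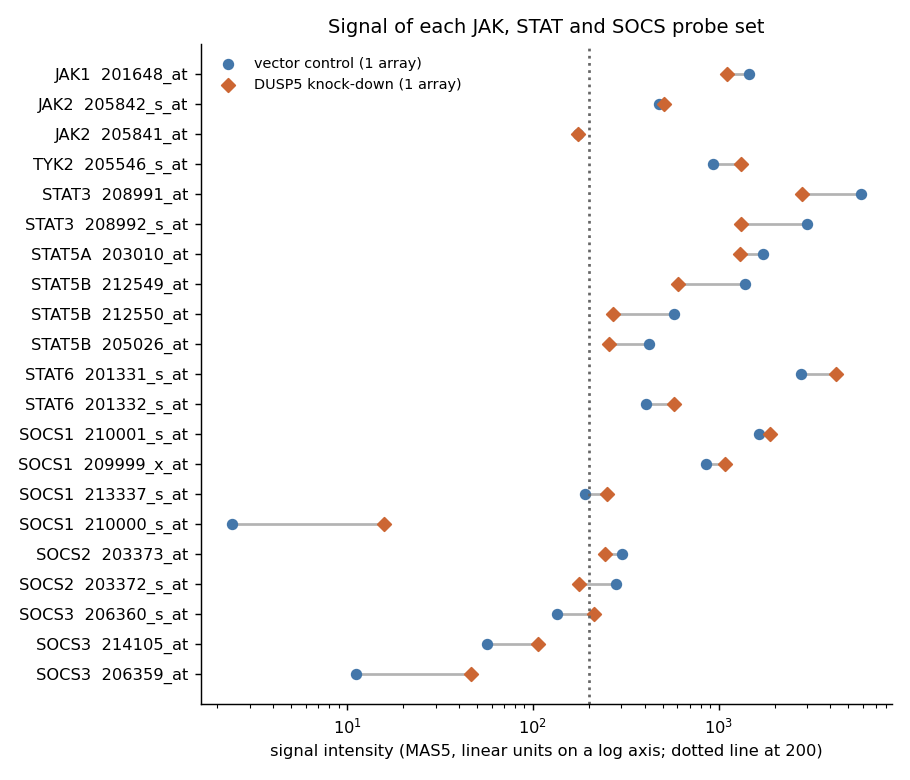
Signal intensity (MAS5 units, log axis) of the 21 probe sets of the 10 genes, with blue circles for control cells and orange diamonds for cells after knock-down of DUSP5 (1 array each). The pairs of STAT3 and STAT5B points lie farthest apart among the probe sets right of the dotted line, which marks a signal of 200, and the widest pairs left of it belong to SOCS1 and SOCS3 probe sets with very dim signals.

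Among the kinases, JAK1, which serves most cytokine receptors of lymphocytes, had a signal intensity of 1450 in control cells and 1108 after knock-down at its only probe set. This is a log2 ratio of -0.39 (SD 0.30). JAK2, which serves erythropoietin-type and interferon gamma receptors and lies on chromosome 9 in a segment often gained in HL, gave 479 and 506 at its brighter probe set (log2 ratio 0.08, SD 0.41). The 2 signals of the dimmer JAK2 probe set were almost the same, at 176 and 174. TYK2, which serves type I interferon and interleukin-12 receptors, had signals of 936 and 1327 at its only probe set, 1.42-fold higher, with a log2 ratio of 0.50 (SD 0.30). JAK1 and TYK2 thus differed by more than 1 SD between probe sets, in opposite directions, and JAK2 by less. No kinase passed the 1.5-fold limit, although TYK2 reached a log2 ratio of 0.59 after quantile normalization, and the sign of JAK2 turned to -0.04 after median centring. JAK3, the partner of the common gamma chain and the remaining member of the family, had signals of 313 and 332 at its brightest probe set, a log2 ratio of 0.09.

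STAT3, the factor downstream of interleukin-6 and interleukin-10 type receptors, showed the clearest difference of the 10 genes in units of probe error. Its brighter probe set had a signal intensity of 5841 in control cells. After knock-down it gave 2828, or 48.4% of the control value. The other gave 2977 and 1320, or 44.3%. The log2 ratios were -1.05 (SD 0.26) and -1.17 (SD 0.30), in each case more than 3 SDs from 0. Both probe sets were thus at least 2-fold lower. The brightest probe set was that much lower in 7.3% of measured genes, and this was so of all measured probe sets in 57 of the 1897 genes (3%) that have 2 or more.

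STAT5A and STAT5B, a closely related pair that act downstream of interleukin-2 type receptors and growth hormone receptors, were unequally lower. The 3 probe sets of STAT5B had signals of 1385, 577 and 423 in control cells and of 601, 270 and 256 after knock-down. Their log2 ratios were -1.20 (SD 0.36), -1.10 (SD 0.41) and -0.72 (SD 0.41), and every one was past the 1.5-fold limit. All measured probe sets were at least 1.5-fold lower in 8.59% of genes with 2 or more. STAT5A, at its only probe set, gave 1730 and 1307, a log2 ratio of -0.40 (SD 0.30). At its brightest probe set, STAT5B lay 0.80 below STAT5A in log2 ratio. The dimmest STAT5B probe set (-0.72, SD 0.41) was nearer to STAT5A, and whether the 2 genes differ was not tested. Whether STAT5A probes also bind STAT5B transcripts was not tested.

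STAT6, the factor of interleukin-4 and interleukin-13 signalling, went the other way. Its brighter probe set had signals of 2784 in control cells and 4309 after knock-down, 1.55-fold higher, and its other gave 408 and 575, 1.41-fold higher. The log2 ratios were 0.63 (SD 0.26) and 0.49 (SD 0.41). The brighter one is just past the 1.5-fold limit and fell short of it after quantile normalization, median centring or subtraction of a lowess fit on signal, where its lowest value was 0.51. Both STAT6 probe sets are of the type _s_at, which can match several transcripts. The difference between the log2 ratios of STAT3 and STAT6 at their brightest probe sets was -1.68. Among the other STAT genes, STAT4, which acts downstream of interleukin-12, had signals of 2434 and 1330, a log2 ratio of -0.87 (SD 0.30).

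**Figure D2:**
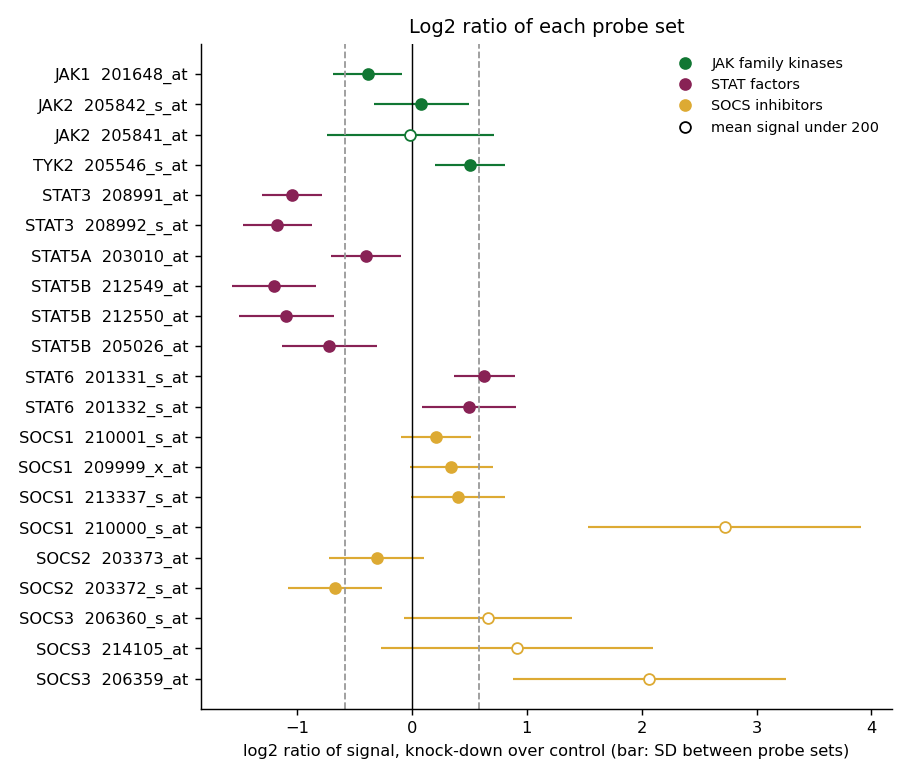
The 21 probe sets by log2 ratio of the signal on the knock-down array to that on the control array. Bars are 1 SD, the error of a single probe set derived from probe sets that share a gene. Filled points are measured probe sets, open points are those whose mean signal was under 200, and dashed lines mark a 1.5-fold difference. All 5 probe sets of STAT3 and STAT5B lie left of the dashed line, from -1.20 to -0.72, and the bars of the dim SOCS probe sets are the longest.

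STAT5B, STAT5A and STAT3 are neighbours on chromosome 17. In assembly GRCh38.p14, STAT5B (42199177 to 42288370), STAT5A (42287439 to 42311943) and STAT3 (42313324 to 42388442) follow each other within 189266 bases, with no other annotated gene lying within that span, and STAT5A and STAT3 are 1380 bases apart. The 5 nearest measured genes on either side were compared after the values of the STAT genes had been seen. Of these 10 neighbours, 1 was at least 1.5-fold higher, the myelin enzyme gene CNP (0.62), and 1 was that much lower, PSMC3IP (-0.64), which acts in meiotic recombination. The other 8 log2 ratios lay between, and the nearest measured genes were RAB5C (0.54), a regulator of early endosomes, on the side of STAT5B and ATP6V0A1 (0.06), a proton pump subunit, on the side of STAT3. STAT3 and STAT5B were lower than each of the 10 neighbours.

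**Figure D3:**
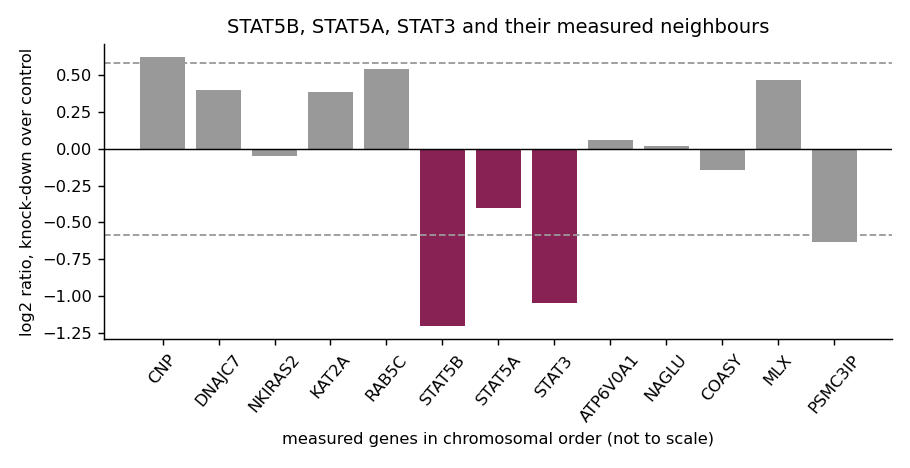
Brightest probe set of STAT5B, STAT5A and STAT3 (purple) and of the 5 nearest measured genes on either side (grey), with the log2 ratio of the knock-down to the control array as bar height, in chromosomal order and not to scale, with dashed lines at a 1.5-fold difference. The bars of STAT5B (-1.20) and STAT3 (-1.05) reach lower than those of all 10 neighbours, which range from -0.64 to 0.62. That of STAT5A (-0.40) does not.

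Among the feedback inhibitors, SOCS1 was slightly brighter after knock-down at all of its probe sets, SOCS3 was brighter at very low signals, and SOCS2 was dimmer. SOCS1, which blocks the JAK catalytic site, had signals of 1647, 856 and 191 in control cells and of 1902, 1085 and 251 after knock-down at its 3 measured probe sets. Their log2 ratios of 0.21 (SD 0.30), 0.34 (SD 0.36) and 0.40 (SD 0.41) were each within 1 SD of 0. The remaining SOCS1 probe set had signals of 2.40 and 15.9, and its log2 ratio of 2.72 (SD 1.19) came down to 0.48 when 32 was added to each signal. All 4 are of the types _s_at or _x_at.

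SOCS2, an inhibitor of growth hormone and STAT5 signalling, gave 302 and 244 at its brighter probe set and 282 and 177 at the other. The log2 ratios were -0.31 (SD 0.41) and -0.67 (SD 0.41), so that only the dimmer one differed by more than 1 SD. SOCS3, which binds gp130-type receptors and limits STAT3, was not measured, as its 3 probe sets had signals of 135, 56.8 and 11.1 in control cells and of 213, 107 and 46.7 after knock-down. Its log2 ratios of 0.66 (SD 0.73), 0.91 (SD 1.19) and 2.07 (SD 1.19) had the same sign, but only the dimmest differed from 0 by more than 1 SD.

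CISH, the founding gene of the SOCS family and a known target of STAT5, was the only gene of the family past the limit among the 4 measured. Its signal was 686 in control cells and 1348 after knock-down, 1.97-fold higher, with a log2 ratio of 0.97 (SD 0.30). It has 1 probe set, of the cross-matching type _x_at. The 3 probe sets of SOCS5 gave log2 ratios of -0.09, -0.50 and 0.39, and SOCS6 and SOCS7 had mean signals under 200, with ratios from -0.12 to 0.08. CISH was thus higher on the array on which STAT5B was lower.

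STAT factors bind DNA at short palindromes, spelled TTCNNNGAA for most STATs, where N is any base, and with 4 bases between TTC and GAA for STAT6. The spellings can overlap each other but did not in the windows shown. Since both spellings read the same on either strand, 1 search covers both. In the RefSeq promoter table of GRCh38.p14, the 250 bases before the start were searched in 35116 promoters, of which 6.57% held the first spelling, 5.38% the second and 11.5% either. The 10 genes had 17 promoters for 9 genes, with no entry for SOCS2, and 1 of the 17, of STAT5A, held a match. CISH was the only gene outside the 10 whose window was examined by itself, and it was picked with earlier results of these data known. It held 4 matches of TTCNNNGAA, a number that only 5 of the 35116 promoters reached. For a gene picked this way the count is a description and not the outcome of a search over genes. Of the windows of the 10 genes and CISH, those of CISH and STAT5A are printed as the ones with matches. Those of STAT3 and STAT5B are printed because these 2 genes were lower. Each runs 5′ to 3′ toward an annotated start of transcription, and capitals mark the matches. CISH is read from the minus strand of chr3:50611775-50612024, STAT5A from the plus strand of chr17:42287189-42287438, STAT3 from the minus strand of chr17:42388443-42388692 and STAT5B from the minus strand of chr17:42276392-42276641. The STAT5A and STAT5B windows both lie within the annotated span of STAT5B, so the STAT5B window precedes a start inside the gene and not its outer end.
CISH: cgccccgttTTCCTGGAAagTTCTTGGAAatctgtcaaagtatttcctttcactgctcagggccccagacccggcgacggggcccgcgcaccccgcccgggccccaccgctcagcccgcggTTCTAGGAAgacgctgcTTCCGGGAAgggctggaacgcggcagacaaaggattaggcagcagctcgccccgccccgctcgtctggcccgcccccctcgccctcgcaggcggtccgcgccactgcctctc
STAT5A: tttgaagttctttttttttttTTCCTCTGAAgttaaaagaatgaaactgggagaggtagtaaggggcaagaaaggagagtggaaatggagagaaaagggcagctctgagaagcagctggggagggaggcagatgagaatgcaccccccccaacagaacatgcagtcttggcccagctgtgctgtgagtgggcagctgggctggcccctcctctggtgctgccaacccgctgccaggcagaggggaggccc
STAT3: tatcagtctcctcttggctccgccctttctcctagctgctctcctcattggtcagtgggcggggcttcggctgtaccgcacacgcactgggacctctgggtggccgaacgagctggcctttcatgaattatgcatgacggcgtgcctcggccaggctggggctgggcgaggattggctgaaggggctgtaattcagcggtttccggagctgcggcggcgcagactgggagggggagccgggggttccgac
STAT5B: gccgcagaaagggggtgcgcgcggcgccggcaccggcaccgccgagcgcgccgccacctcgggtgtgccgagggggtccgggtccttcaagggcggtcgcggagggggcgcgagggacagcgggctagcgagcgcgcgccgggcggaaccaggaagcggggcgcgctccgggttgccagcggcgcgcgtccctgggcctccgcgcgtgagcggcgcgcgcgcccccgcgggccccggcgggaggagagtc
The CISH matches begin 241, 230, 129 and 112 bases before the start and form 2 close pairs. The single STAT5A match, TTCCTCTGAA, begins 229 bases before the start. A match is a description of the letters and was not tested for binding, and windows without a match say nothing about STAT binding elsewhere.

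Among the measured genes of the pathway lists, lower signals were more frequent than higher ones after knock-down. The lists, here and below, were written with earlier results of these data known, so their shares are descriptions and not tests. Of 122 further pathway genes on 12 lists, 66 were measured, of which 20 (30.3%) were at least 1.5-fold lower and 11 (16.7%) were at least 1.5-fold higher, beside 19% and 15.6% of all measured genes. After median centring, 24 were lower and 8 were higher, when 24.1% of all measured genes were lower and 11% were higher. With no filter on low signals 28 of 111 genes were lower and 26 higher, when 18.7% of all genes were lower and 24.6% were higher. The median log2 ratio of the 66 genes was -0.08.

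Cytokine receptors held 7 of the 20 lower genes and 21 of the 66 measured ones. Of 39 listed receptor genes 21 were measured, and 7 (33.3%) were lower and 1 was higher, with a median log2 ratio of -0.26. Among all measured genes, 19% were lower and 15.6% higher. With no filter on low signals, the receptor lists went different ways. The common gamma chain list then had 4 lower and 1 higher of 11, and the interferon and interleukin-10 list 3 and 1 of 8. The gp130 list had 1 lower and 5 higher of 10, and the common beta chain list 0 and 1 of 7. IFNGR1, the ligand-binding chain of the interferon gamma receptor, had signals of 3504 and 872 at its brightest probe set, a log2 ratio of -2.01 (SD 0.30), with -1.28 at its other. Its partner chain IFNGR2 had a log2 ratio of 0.35. IL6ST, which encodes gp130, the shared signal chain of interleukin-6 type receptors upstream of STAT3, gave 953 and 300 at its brightest probe set, a log2 ratio of -1.67 (SD 0.36). The other 4 probe sets of IL6ST were also lower, from -2.21 to -0.53.

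Of the common gamma chain family, the shared chain IL2RG (-0.99), the interleukin-4 receptor chain IL4R (-0.69) and the TSLP receptor chain CRLF2 (-1.16) were lower. IL2RG had signals of 2676 and 1343. In contrast, IL13RA1, a partner of IL4R, had a log2 ratio of 0.13, IL21R of -0.07 and IL2RA of 0.17 at their brightest probe sets. The interleukin-10 receptor chains IL10RB (signals 718 and 358) and IL10RA (-0.75) were both lower. CNTFR, the receptor of ciliary neurotrophic factor, was the only measured receptor that was higher (0.69, SD 0.41), with signals of 170 and 274. It fell short of the limit after median centring. Of the common beta chain and homodimeric receptors, IL5RA (-0.49), IL3RA (-0.47) and EPOR (0.36) were measured and none passed the limit, although 2 of the 3 were lower after median centring and 1 was without types _s_at and _x_at.

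Of 26 listed ligands only 4 were measured. IL15 (-1.14) and IL13 (-0.85), a growth factor that HL cells make for themselves, were lower, and IL6 (-0.54) and IL5 (-0.12) lay between the limits. IL13 had signals of 702 and 388. Among all measured genes, 19% were lower by at least 1.5-fold.

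Intracellular inhibitors and partners went both ways, where 19% of all measured genes were lower and 15.6% higher. Of 9 measured phosphatases and other inhibitors, 2 were lower, the interferon-induced USP18 (-1.06) and PTPN2 (-0.98). PTPN2, which dephosphorylates JAK1, JAK3 and STATs, had -0.43 at its other measured probe set, short of the limit. The phosphatase PTPN6 (0.74), known as SHP-1, and PIAS2 (0.65, with -0.29 and -0.01 at its dim other probe sets) were higher, of which PIAS2 fell short of the limit after median centring and with 32 added to each signal, and PTPN1 had a log2 ratio of 0.06. Of 6 parts of the ubiquitin ligases that SOCS proteins recruit, RNF7 (1.39), ELOB (0.89) and RBX1 (0.84) were higher and ELOC (-0.75) was lower. ELOB and ELOC, which bind each other and the SOCS box, thus had opposite signs at their brightest probe sets, although the dim second probe set of ELOB was at -0.67. Among STAT partners, IRF9 (-0.89), a DNA-binding partner in interferon signalling, was lower. Also lower were the coactivators CREBBP (-0.71) and NCOA1 (-0.62, with -1.13 to -0.10 at its other probe sets). NCOA1 fell short of the limit under the quantile and lowess scalings. STAM2 (1.03), an endosomal sorting adaptor, was higher, with 0.40 at its other measured probe set, short of the limit.

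**Figure D4:**
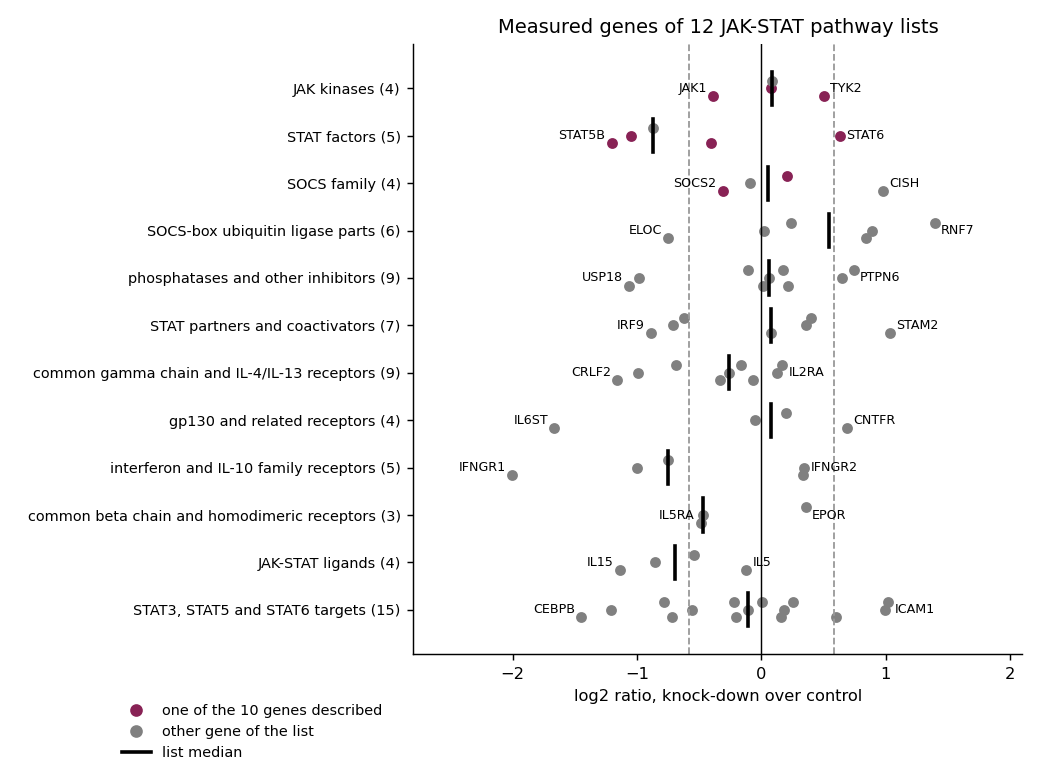
Measured genes on 12 lists of the JAK-STAT pathway, by log2 ratio of the knock-down to the control array, 1 point per gene at its brightest probe set, with the number of measured genes in parentheses, black bars at the list medians and dashed lines at a 1.5-fold difference. The vertical offset of points has no meaning. IFNGR1 (-2.01) and IL6ST (-1.67) lie farthest left and RNF7 (1.39) farthest right.

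Genes that STAT3, STAT5 or STAT6 are known to regulate went both ways at their brightest probe sets. Of 22 listed targets 15 were measured, with 4 lower, 3 higher and 8 between the limits and a median log2 ratio of -0.11. Among all measured genes, 19% were lower and 15.6% higher. Without types _s_at and _x_at, 6 of 11 targets were lower and 1 was higher, with a median of -0.68. In that setting 21.3% of all measured genes were lower and 14.5% higher. The factor CEBPB (-1.45), the germinal centre repressor BCL6 (-1.21, with -0.46 at its other probe set), the kinase PIM2 (-0.78) and the survival gene BCL2L1 (-0.72, with -0.76 and 0.44 at its other probe sets) were lower. Higher were the adhesion molecule ICAM1 (1.02, with 0.17 and 1.03 at its other probe sets), the chemokine CCL17 (0.99) and MYC (0.60), which fell short of the limit after median centring. CCL17, which STAT6 is known to induce and HL cells secrete, had signals of 3022 and 6019. FCER2, which encodes CD23 and is also induced by STAT6, went the other way at 2 dim probe sets, with signals of 313 and 67.7 at the brighter one. These genes respond to other factors as well, and the share of STAT signalling in their values was not tested.

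Scaling the arrays in another way moved these ratios little. Under the 5 scalings compared, the log2 ratio ranged from -1.19 to -1.04 for STAT3 and from -1.33 to -1.11 for STAT5B at their brightest probe sets, and from 0.51 to 0.63 for STAT6. STAT5A (-0.53 to -0.33), JAK1 (-0.51 to -0.31) and SOCS2 (-0.43 to -0.26) stayed below 0, and TYK2 (0.38 to 0.59), SOCS1 (0.08 to 0.26) and SOCS3 (0.53 to 0.66) stayed above it. JAK2 was the only gene whose sign changed (-0.04 to 0.15).

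**Figure D5:**
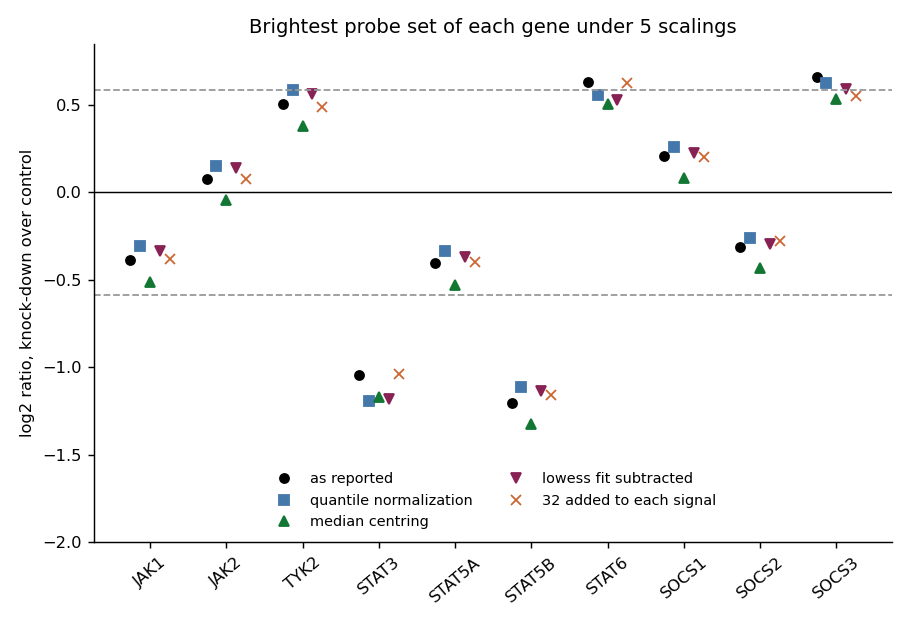
Brightest probe set of each of the 10 genes, by log2 ratio of the knock-down to the control array, under 5 scalings of the 2 arrays, with dashed lines at a 1.5-fold difference. STAT3 and STAT5B lie below the lower dashed line under all 5, the symbols of STAT6, TYK2 and SOCS3 lie around the upper line, and those of JAK2 on both sides of 0.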

How the data were processed

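Gene expression of L-428 cells was measured on 2 Affymetrix HG_U133A microarrays, 1 per condition. The deposited values are the authors' MAS5 signal intensities, on a linear scale, 1 per probe set. They were made with Expression Console, with 500 as the common target intensity of the arrays. Detection calls were not used here. Probe sets were named from the platform annotation of 2016 where it gives 1 symbol, and all 10 symbols were unchanged in RefSeq (GRCh38.p14).

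The log2 ratio of knock-down over control was computed without further normalization. With 1 array per condition no test was possible. A gene took its brightest probe set and was called measured from a mean signal of 200 upward. The SD between probe sets came from pairs of the same gene within the same band of mean signal. The 10 genes, the 15 gene lists and the steps were chosen with earlier results of these data known. All 10 genes were named, and from each list of the pathway at most 3 measured genes from either end of the order of ratios, plus the paralogs of the 10 genes and DUSP5. Other genes in the text (FCER2, BCL2L1, PTPN1 and the genes next to JAK2 and the STAT genes) were chosen after their values were seen. Alternatives were quantile normalization, median centring, subtraction of a lowess fit (span 0.3), adding 32 to the signals, no filter, a limit of 500 on mean signal, a 2-fold limit, the mean of all probe sets, and leaving out types _s_at and _x_at. The steps were tested on simulated data. Computations ran in Python 3.11.15 (numpy 2.4.6, pandas 2.3.3, statsmodels 0.14.6, matplotlib 3.10.9). The number of arrays limits the precision.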

Additional observations from a re-analysis of the deposited data

How the results depend on the processing

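STAT3 and STAT5B were the 2 genes counted as lower in all 9 alternatives. The number of genes at least 1.5-fold higher, 1 as reported (STAT6), was 0 after median centring, after subtraction of the lowess fit, at a 2-fold limit and without types _s_at and _x_at, which leaves out STAT6, and 2 with no filter, where SOCS3 joined it. It was also 1 after quantile normalization (TYK2) and when all probe sets of a gene were averaged (SOCS1). Of probe sets, 0 were higher in the same 4 settings and 5 with no filter, and 3 were lower at a mean signal of at least 500. Of the pathway genes, 11 of 66 higher and 20 lower as reported, 26 of 111 were higher and 28 lower with no filter, 6 of 47 higher and 19 lower at a mean signal of at least 500, 3 of 66 higher and 8 lower at a 2-fold limit, and 3 of 45 higher and 20 lower without types _s_at and _x_at. Over all genes, 24.6% were higher and 18.7% lower with no filter, and 15.7% and 18.9% at a mean signal of at least 500. At a 2-fold limit 4.38% were higher and 7.3% lower, and without types _s_at and _x_at 14.5% and 21.3%. Fewer or more probe sets enter by construction in the settings of filter, limit and type, and for the others the cause was not tested. Of 84 probe set ratios under other scalings, 82 moved by less than the SD between probe sets and 2, of SOCS1 and SOCS3, by more. Of the list values 323 moved little, 64 moved by more, and 1 median past the 1.5-fold limit changed sign, that of interferon and interleukin-10 type receptors, from -0.75 to 0.18 with no filter. Medians nearer 0 changed sign as well. Common beta chain and homodimeric receptors went from -0.47 to 0.18 with no filter. At a mean signal of at least 500, STAT partners went from 0.08 to -0.62, gp130 type receptors, with 1 gene left, from 0.07 to -1.67 and inhibitors from 0.06 to -0.11. Without types _s_at and _x_at the medians of JAK kinases, SOCS genes, inhibitors and STAT partners fell below 0 (-0.15, -0.31, -0.48 and -0.71), as did that of gp130 type receptors when probe sets were averaged (-0.29). After median centring, the medians of these 5 lists lay between -0.07 and -0.04, and after subtraction of the lowess fit that of STAT partners was -0.01. No paired analysis was possible because there was only 1 array per group. Low signal limits SOCS3 and the dim probe set of SOCS1.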

Other observations

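JAK2 lies in a segment of chromosome 9 that is often gained in HL together with the genes of the PD-1 ligands. Of 15 listed genes around JAK2, 6 were measured, and 2 were at least 1.5-fold lower and none higher after knock-down, beside 19% of all measured genes that were lower and a log2 ratio of 0.08 for JAK2. Under the quantile and lowess scalings 1 was lower, as PLGRKT fell short of the limit. The lower ones were RANBP6 (-1.60, signals 647 and 213) and PLGRKT (-0.63, signals 996 and 644), a plasminogen receptor. RCL1, which acts in ribosome assembly, had a log2 ratio of 0.12, CDC37L1 of -0.32, KDM4C, a histone demethylase, of -0.35 and ERMP1 of -0.43. PDCD1LG2, which encodes the PD-1 ligand PD-L2, was not measured, with signals of 121 in control cells and 10.1 after knock-down. No probe set was assigned to CD274 in the annotation used.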
